A study of Mus musculus with 12 samples.

Results

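The genes described here are those of the mouse Zfp series, symbols made of Zfp and a number, that were measured in B16 mouse melanoma cells with and without depletion of Elp3. Of 24421 gene symbols in the count table, 337 have such a name, and the 246 members are those whose raw counts averaged at least 50 over the 6 total RNA libraries. The other 91 fell below that minimum, 7 of them with a count of 0 in all RNA libraries, and were left out. The members were thus chosen by their RNA counts, and their RNA levels are given below as a description. The members just inside the minimum were Zfp101 (a mean RNA count of 50.2), Zfp82 (50.3) and Zfp953 (50.8), and the genes just outside it were Zfp36 (49.2), Zfp747 (48.3) and Zfp414 (47.0).

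Total RNA and ribosome-protected fragments (RPF, or footprints, the pieces of mRNA that a ribosome shields from nuclease) were sequenced from the same cells. All cells were B16, a melanoma line grown in DMEM with serum, and all had been transduced with a lentivirus. The controls carried an shRNA with no relevant target (shControl), and the depleted cells carried sh309, an shRNA against Elp3 (shElp3). Each of the 4 groups (RNA or RPF, shControl or shElp3) held 3 libraries with the letters A to C. The labels link an RPF library to the RNA library with its shRNA and letter, which gives 6 cultures. A single shRNA sequence stands for the depletion, and the labels do not state separate transductions for the cultures. The p-values below therefore cover the spread among these cultures, which may be technical.

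A C2H2 zinc finger is a short loop of protein in which a pair of cysteines and a pair of histidines hold a zinc ion, and fingers strung in a row read DNA bases or bind RNA. Zfp is a naming series and not a single family: it holds activators, proteins of RNA processing and of ribosome assembly, and many proteins with a KRAB domain. A KRAB domain recruits TRIM28 (KAP1), which brings SETDB1 and HP1 proteins and silences transposable elements and imprinted genes. KRAB zinc finger genes multiplied by tandem duplication and lie in long runs along chromosomes. Elp3 is the catalytic subunit of Elongator, which begins the modification of the wobble uridine of a set of tRNAs.

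The promoters of the 3 members that edgeR called lower in RNA or footprints over all 6 libraries of a fraction are shown first, because the results below turn on these genes. They are 300-base windows from RefSeq (build GRCm38.p6, which is mm10), from 250 bases before to 50 after the annotated start, on the strand of the gene. Capitals mark every match on either strand to the CCAAT box (CCAAT), the GC box (GGGCGG), the letters TTTCGCG or TTTGGCG of E2F sites, or TTTGAA, the cell cycle homology element. The windows are chr17:33394588-33394887 (minus strand), chr13:64153150-64153449 (minus strand) and chr5:105876318-105876617 (plus strand).
Zfp101: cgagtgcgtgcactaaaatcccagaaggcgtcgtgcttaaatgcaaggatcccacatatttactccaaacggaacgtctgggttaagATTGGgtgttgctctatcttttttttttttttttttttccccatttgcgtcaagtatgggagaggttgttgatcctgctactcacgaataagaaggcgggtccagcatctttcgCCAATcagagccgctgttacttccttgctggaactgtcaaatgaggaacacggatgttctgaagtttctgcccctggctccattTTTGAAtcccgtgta
Zfp367: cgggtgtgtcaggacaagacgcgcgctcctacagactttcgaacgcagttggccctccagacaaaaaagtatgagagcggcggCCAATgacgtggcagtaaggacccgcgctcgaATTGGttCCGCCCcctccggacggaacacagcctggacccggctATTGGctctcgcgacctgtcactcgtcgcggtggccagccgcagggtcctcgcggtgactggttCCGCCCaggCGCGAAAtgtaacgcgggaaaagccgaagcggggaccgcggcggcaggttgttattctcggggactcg
Zfp326: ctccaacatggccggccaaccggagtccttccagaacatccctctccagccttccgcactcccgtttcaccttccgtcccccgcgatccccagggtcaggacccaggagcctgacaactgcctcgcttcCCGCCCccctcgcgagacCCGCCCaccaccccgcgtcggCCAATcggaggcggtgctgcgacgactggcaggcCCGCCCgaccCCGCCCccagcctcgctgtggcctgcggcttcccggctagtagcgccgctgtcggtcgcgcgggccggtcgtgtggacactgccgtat
The Zfp101 window has 13 CpG dinucleotides and 45.7% GC, with 2 CCAAT matches and 1 TTTGAA. That of Zfp367 has 36 CpG and 64.0% GC, with 3 CCAAT matches, 2 GC boxes and 1 E2F match (CGCGAAA on the strand shown). In the Zfp326 window 34 CpG, 71.3% GC, 1 CCAAT match and 4 GC boxes were found. The windows of Zfp37 and Zfp113, whose footprints rose, hold none of these letters, and a match or its absence here describes the letters only.

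A window was found for 205 members, and their letters were counted beside those of 17492 protein-coding genes. CpG-rich starts (observed over expected CpG above 0.6) made up 61.5% of members and 48.3% of all. CCAAT was found in 48.8% of members and 39.0% of all, the GC box in 46.8% and 46.3%, TTTGAA in 15.6% and 16.5%, and the TATA letters TATAAA in 5.85% and 13.3%. The E2F letters were in the windows of 13 members (6.34%, against 3.02% of all). These 13 members had median log2 fold changes of 0.07 in RNA and 0.04 in footprints. Of them edgeR called Zfp367, with the letter as a block in RNA (all genes 12.2%) and in footprints (all genes 4.83%). DESeq2 called Zfp367 in both fractions (all genes 5.31% in RNA and 11.5% in footprints) and Zfp668 higher in footprints (0.76, adjusted p = 0.0058).

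The letters TACAATTCC, the core of the site of ZNF143 (the human counterpart of Zfp143, itself a member), were in the windows of 6 members (2.93%) and of 0.560% of all. They are shown because, of the 6 motifs searched, theirs was the share among members that was highest relative to all genes. Each line gives 27 bases with the core in capitals, 5′ to 3′ on the strand that carries it.
Zfp1: gtgtaggacTACAATTCCcataatgcc
Zfp180: caatggaacTACAATTCCcagaactct
Zfp58: tggccagacTACAATTCCcacaagtct
Zfp692: aaggctaacTACAATTCCcggcaggct
Zfp93: cgttggaacTACAATTCCcagaattcc
Zfp933: ccaaagaacTACAATTCCcagcattcc
The sites lie at chr8:111643409-111643435 (minus, Zfp1), chr7:24081866-24081892 (minus, Zfp180), chr13:67500535-67500561 (plus, Zfp58), chr11:58307014-58307040 (plus, Zfp692), chr7:24270338-24270364 (minus, Zfp93) and chr4:147848431-147848457 (minus, Zfp933). None of these 6 genes was called by edgeR, where 0 in RNA and 1 in footprints had an unadjusted p under 0.05 (all genes 12.4% and 23.1%). DESeq2 called Zfp933 in footprints (all genes 11.5%). Their log2 fold changes ran from -0.16 (Zfp1) to 0.46 (Zfp93) in RNA and from -0.41 (Zfp1) to 0.88 (Zfp933, SE 0.22, edgeR adjusted p = 0.065) in footprints.

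Library totals were 7914369 to 16527864 counts in RNA and 7619269 to 10998570 in RPF. Elp3, the targeted gene, lay at 93.9, 72.1 and 70.0 CPM (counts scaled to the library's size) in control RNA and at 41.3, 35.3 and 35.4 in shElp3 RNA (letters A to C). In footprints it lay at 102, 96.1 and 118 against 48.8, 60.5 and 55.8, and the groups did not overlap in either fraction. All 10 melanocyte markers were above 1 CPM in every RNA library, and their summed level was 9046 to 12143 CPM in controls and 6089 to 7658 in shElp3 cells. This sum moved with the shRNA, and its part in the results below was not tested. Of the markers of other cells, 2 of 8 for leukocytes, 2 of 7 for fibroblasts and 0 of 6 for epithelium were above 1 CPM in every RNA library, with 2, 1 and 3 of them at 0. The fibroblast sum was 13.1 to 24.6 CPM in controls and 21.8 to 43.1 in shElp3 cells, the leukocyte sum 7.61 to 22.5 and 6.23 to 11.7, and the epithelium sum 0.447 to 1.38 and 0.238 to 0.789.

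Letter A stood apart, and the Zfp genes show it. The members took 0.50% of the counts of control RNA A against 0.700% and 0.712% of B and C, and 0.620% against 0.712% and 0.722% in shElp3 RNA. Their share of footprints ran from 0.394% (control A) to 0.438%. In control RNA, A was below both B and C for 125 members (50.8%, against 45.6% of all genes tested) and above both for 93 (37.8%, against 46.3%). Across members, which are not replicates, control RNA A correlated with B and C at r = 0.779 and 0.745, and B with C at 0.980. Zfp609, a partner of the cohesin loader NIPBL, is an extreme case: control RNA held 9.17 CPM in A, 92.4 in B and 110 in C, and shElp3 RNA 16.9, 125 and 88.1. Its footprints were 41.0, 32.9 and 35.8 CPM in controls and 34.5, 34.2 and 26.4 in shElp3 cells. For this gene the gap of letter A was thus in RNA and not in footprints. Over the members, control footprints also set A apart. There A was below both B and C for 137 members (55.7%, against 44.7% of all genes tested). It correlated with B and C at r = 0.898 and 0.903, and B with C at 0.974. In shElp3 footprints A was below both for 89 members (36.2%, against 34.3%). Results are therefore given with all 6 libraries of a fraction, with the letter as a block in RNA, and for letters B and C alone. In RNA letter A was shared across the shRNAs, while B and C were not shown to pair the samples.

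In total RNA the Zfp genes as a group stayed close to where all genes lay. A single member was called at an edgeR adjusted p of 0.05, Zfp101, which fell (1 of 246, or 0.407%, against 1.14% of the 12274 genes tested). By direction, 0 members were higher (0.22% of all genes) and 1 was lower (0.921% of all genes), while 18 members had an unadjusted p under 0.05 (7.32%, against 12.4% of all). DESeq2 called 4 members (1.63%, against 5.31% of all), with Zfp367 and Zfp101 lower (all genes 3.43%) and Zfp14 and Zfp760 higher (all genes 1.88%). In bulk cells, fewer cells of a kind and less RNA per cell cannot be told apart. The members' median log2 fold change was 0.03, with quartiles of -0.17 and 0.31, and that of all genes was -0.02. Fold changes within 0.5 of 0 on the log2 scale made up 206 members (83.7%, against 73.1% of all), and 6 members (2.44%, against 7.29%) went beyond 1.

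Zfp101 (chromosome 17, 33380174 to 33394637) is a zinc finger gene that lies outside the runs described below. Its RNA was 6.26, 7.88 and 5.62 CPM in controls A to C and 2.16, 1.31 and 1.81 in shElp3 cells, with no overlap. The means were 6.59 ± 1.16 and 1.76 ± 0.43 CPM (SD, n = 3). The log2 fold change was -1.88 (SE 0.32, adjusted p = 0.0455 by edgeR), and 27.2% of the control level was left. With the letter block it was -1.86 (adjusted p = 0.0020), and with letters B and C alone -2.07 (0.0003). It also is the member nearest the count minimum, with a lowest RNA count of 11. The call was kept without shControl A (edgeR adjusted p = 0.018, with 4.35% of all genes called). It ended without any other library, and in each of those fits 0% of all genes were called. The adjusted p was 0.23 when shControl B and 0.14 when shControl C was left out. It was 0.13, 0.24 and 0.26 without the shElp3 libraries A to C. Log2 fold changes in those fits were -2.06 to -1.73. The call also ended with scaling by library totals (-1.77, 0.078). In footprints Zfp101 lay at 5.04, 8.05 and 6.47 CPM in controls and 2.89, 2.99 and 5.04 in shElp3 cells, so that the lowest control and the highest shElp3 library were level, and the log2 fold change of -0.84 (SE 0.32, adjusted p = 0.166) was not called.

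**Figure D1:**
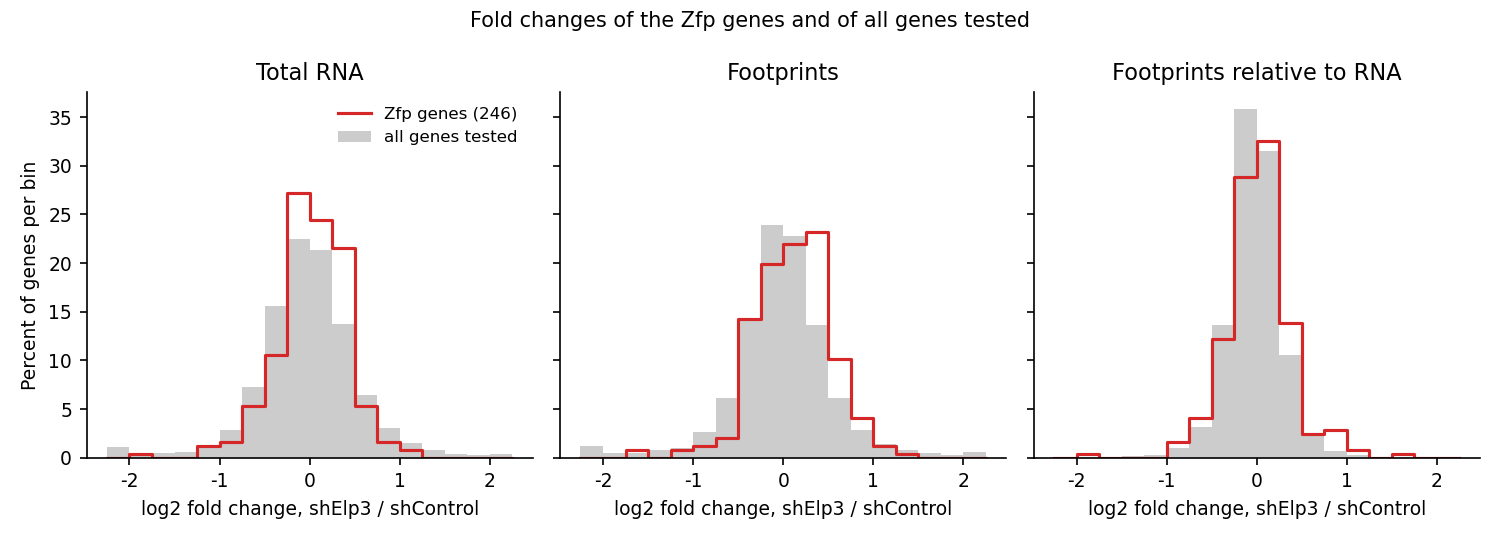
Share of genes (vertical axis, percent) in bins of 0.25 of the log2 fold change shElp3 over shControl (horizontal axis), for the 246 Zfp genes (line) and all genes tested (grey bars), in RNA, footprints and footprints relative to RNA. The outermost bins hold everything beyond -2 and 2. The Zfp line is narrower than the bars in RNA, where 83.7% of members lie within 0.5 of 0, and lies to the right in footprints, where 61.0% of members are above 0.

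With the letter as a block, 14 members were called in RNA (5.69%, against 12.2% of all genes), 5 higher (all genes 5.46%) and 9 lower (all genes 6.75%). The lower ones were Zfp101, Zfp367, Zfp143, Zfp9, Zfp575, Zfp948, Zfp326, Zfp120 and Zfp330, the last named although it is the ninth decrease and outside the rule for names. The higher ones were Zfp14, Zfp94, Zfp760, Zfp688 and Zfp839. With letters B and C alone 24 members were called (9.76%, against 19.4%), 12 higher (all genes 8.88%) and 12 lower (all genes 10.5%). In each of these fits the members' share of calls was below that of all genes.

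Zfp367, a transcription factor first described in erythroid cells, lies on chromosome 13 (64133022 to 64153199). Control RNA held 79.8, 53.6 and 40.0 CPM and shElp3 RNA 34.5, 22.5 and 22.5. The groups did not overlap, and letter A was highest in both. The log2 fold change was -1.13 (SE 0.33, edgeR adjusted p = 0.20) and, with the letter block, -1.10 (SE 0.18, adjusted p = 0.0011).

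Zfp143 (chromosome 7, 110061689 to 110095396) activates small nuclear RNA and many protein-coding promoters and binds at the bases of chromatin loops. Control RNA held 82.8, 29.9 and 19.8 CPM and shElp3 RNA 30.4, 13.9 and 16.3, so the groups overlapped and the fall within letter A was the widest. Its log2 fold change was -1.13 (SE 0.57, edgeR adjusted p = 0.50), and -0.96 (SE 0.22, adjusted p = 0.012) with the letter block. Letters B and C alone gave -0.71 (0.024), and without shControl A alone the unblocked value was -0.29 (0.68). The latter fit keeps shElp3 A without a control of its letter. Footprints were 95.5, 53.1 and 41.0 CPM in controls and 37.2, 38.5 and 28.4 in shElp3 cells, without overlap, at -0.86 (SE 0.31, adjusted p = 0.147).

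Zfp9 (chromosome 6, 118461950 to 118479961) held 66.2, 36.2 and 32.9 CPM in control RNA and 22.5, 23.4 and 21.0 in shElp3 RNA, with no overlap. With the letter block its log2 fold change was -0.95 (SE 0.21, edgeR adjusted p = 0.0098), and letters B and C alone gave -0.64 (0.013). Without a block the RNA value was -1.02 (adjusted p = 0.219) and, without shControl A, -0.63 (0.14). Its footprints were 68.5, 29.6 and 32.0 CPM in controls and 21.5, 21.2 and 14.2 in shElp3 cells, again with letter A of the controls far above B and C. The footprint log2 fold change of -1.19 (SE 0.35, adjusted p = 0.0943) was not called by edgeR with all 6 libraries, was called by DESeq2 (adjusted p = 0.015), and was -0.80 (0.016 by edgeR) with letters B and C.

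Among the increases, Zfp14 (chromosome 7, 30036357 to 30051396) held 1.94, 3.02 and 3.32 CPM in control RNA and 6.06, 4.99 and 8.52 in shElp3 RNA, with no overlap. Its log2 fold change with the letter block was 1.25 (SE 0.31, edgeR adjusted p = 0.018). Zfp760 held 8.72, 11.2 and 9.50 CPM against 17.6, 16.3 and 17, at 0.80 (SE 0.22, adjusted p = 0.032) with the block. Zfp94 held 2.98, 5.13 and 4.33 CPM against 8.94, 7.25 and 8.52, at a log2 fold change of 1.02 (adjusted p = 0.037) with the block, and was not called with letters B and C alone (0.74, 0.057). Groups of these 3 genes did not overlap. Zfp94 shares genomic bases with Zfp61, and with no strand setting given its reads and those of Zfp61 may be mixed. The block values of Zfp688 and Zfp839 were 0.72 and 0.70, and those of Zfp948, Zfp120 and Zfp330 were -0.79, -0.66 and -0.63. With letters B and C alone Zfp120 was not called (-0.41, edgeR adjusted p = 0.106), and the other 4 were. Leaving out control RNA A alone keeps shElp3 A without a control of its letter. Letter A was shared across the shRNAs in RNA, so that fit mixes the letter with the shRNA. There the unblocked log2 fold change of Zfp120 moved from -0.75 to -0.20 and that of Zfp330 from -0.69 to -0.08. That of Zfp948 moved from -0.83 to -0.49 and that of Zfp688 from 0.66 to 1.13.

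In footprints 4 members were called (1.63%, against 4.83% of the 11343 genes tested): Zfp367 and Zfp326 fell (all genes lower 3.06%), and Zfp37 and Zfp113 rose (all genes higher 1.77%). The members' median log2 fold change was 0.13, with quartiles of -0.14 and 0.39, against -0.01 for all genes. Of the members 150 (61.0%, against 49.1% of all) had a value above 0, and 195 (79.3%, against 74.5%) lay within 0.5 of 0. Letters B and C alone called 22 members (8.94%, against 21.7% of all), 15 higher (all genes 9.41%) and 7 lower (all genes 12.2%). Under that restriction the median was 0.06, and all 4 members named above were among the 22. DESeq2 called 12 members over the 6 libraries (4.88%, against 11.5% of all), 6 higher (all genes 4.66%) and 6 lower (all genes 6.88%). Without shControl A edgeR called 27 members (11.0%, against 24.8% of all). Without shControl B or C it called 0 members (0.452% and 0.512% of all genes). Without any one of the shElp3 libraries it called 0 members (0% of all genes).

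**Figure D2:**
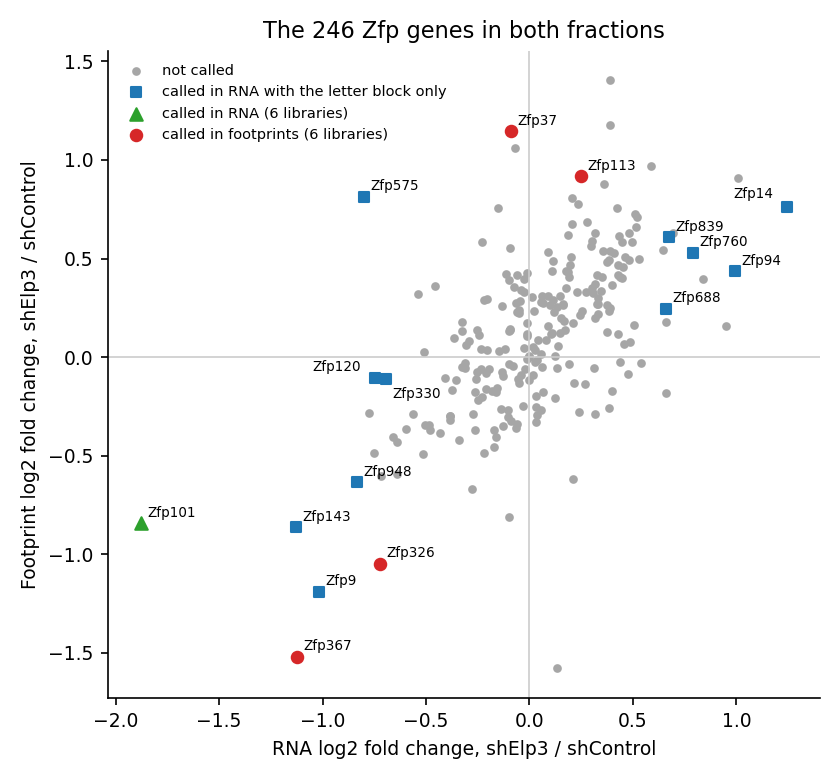
Log2 fold change shElp3 over shControl in footprints (vertical axis) against that in total RNA (horizontal axis) for the 246 Zfp genes, one point each, with shapes for the fit that called them. Zfp101 is farthest left at -1.88, Zfp367 lies at -1.13 and -1.52, and Zfp37 and Zfp575 stand above the cloud, with footprint values of 1.14 and 0.81 at RNA values of -0.09 and -0.80.

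Zfp367 had the lowest adjusted p among the members in footprints together with Zfp326. Its footprints were 21.7, 17.6 and 17.3 CPM in controls and 7.03, 7.52 and 5.15 in shElp3 cells, or 18.9 ± 2.46 against 6.57 ± 1.25 CPM (SD, n = 3). The groups were far apart. The log2 fold change was -1.52 (SE 0.22, adjusted p = 0.0197 by edgeR), which leaves 34.9% of the control level. Without shControl A the call was kept (0.0006). It ended without shControl B (0.064) or C (0.058), and without the shElp3 libraries A (0.12), B (0.11) or C (0.085).

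Zfp326 (chromosome 5, 105876556 to 105915818) is the zinc finger subunit of DBIRD, a complex that joins RNA polymerase II to mRNP particles and affects splicing of AT-rich exons. Its footprints were 56.2, 73.5 and 59.9 CPM in controls and 30.9, 29.9 and 31.0 in shElp3 cells, so the 3 shElp3 libraries were nearly equal and far below the controls. The log2 fold change was -1.05 (SE 0.15, edgeR adjusted p = 0.0197), leaving 48.4%. Its RNA was 19.7, 37.3 and 29.0 CPM against 14.8, 17 and 20.3, which overlapped, at -0.72 (SE 0.29, adjusted p = 0.369). The letter block gave -0.68 (0.045) in RNA. The footprint call ended without shControl B (adjusted p = 0.065) or C (0.058) and without the shElp3 libraries A (0.12), B (0.14) or C (0.090), at log2 fold changes of -1.09 to -0.93, and without shControl A it was kept (0.0002).

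Zfp37 (chromosome 4, 62189537 to 62209129), a KRAB zinc finger gene known from male germ cells and the brain, rose in footprints. Controls held 4.20, 4.97 and 4.01 CPM and shElp3 cells 8.79, 9.79 and 10.6, with no overlap. The log2 fold change was 1.14 (SE 0.22, edgeR adjusted p = 0.0345), or 2.21-fold. Its RNA did not move with the footprints: 6.34, 6.60 and 7.65 CPM in controls and 7.80, 6.42 and 5.13 in shElp3 cells overlapped, at -0.09 (SE 0.27, adjusted p = 0.955). The footprint call was kept without shControl A (0.0048) and ended without shControl B (0.10) or C (0.11) and without the shElp3 libraries A (0.14), B (0.17) or C (0.13).

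Zfp113 (chromosome 5, 138139702 to 138155744) rose as well. Its footprints were 9.10, 9.84 and 12.4 CPM in controls and 19.6, 19.8 and 20.1 in shElp3 cells, without overlap, at a log2 fold change of 0.92 (SE 0.18, adjusted p = 0.0375 by edgeR). In RNA it held 22.8, 21.5 and 24.0 CPM against 25, 29.9 and 26.4, at 0.25 (SE 0.20, adjusted p = 0.722). Without shControl A the footprint call was kept (0.0059), and it ended without shControl B (0.13) or C (0.078) and without the shElp3 libraries A (0.16), B (0.17) or C (0.13).

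**Figure D3:**
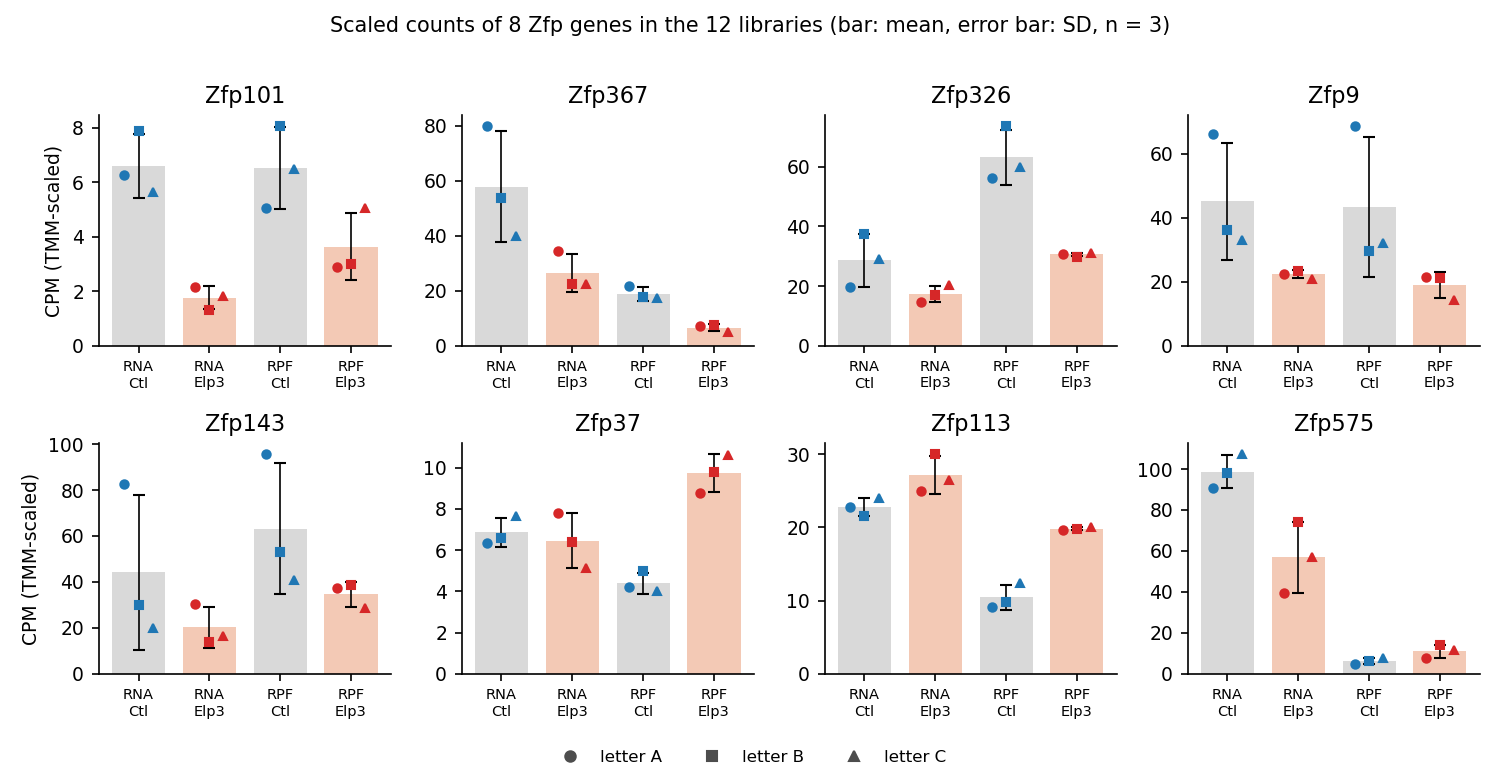
Scaled counts in CPM (vertical axis) of 8 Zfp genes in each of the 12 libraries, by fraction and shRNA (Ctl is shControl, Elp3 is shElp3), with the letter as the point's shape, bars for the mean and error bars for the SD of 3 libraries. Controls and shElp3 libraries do not overlap for Zfp367 in either fraction, Zfp37 separates in footprints only, and Zfp143 shows control A at 82.8 CPM above B and C in RNA.

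The far ends of the footprint values, looked up after the values were seen, were not called by edgeR, and DESeq2 called the lower of them (Zfp787, adjusted p = 0.036). Zfp787 had the lowest log2 fold change, -1.58 (SE 0.57, edgeR adjusted p = 0.152), from control values of 53.2, 23.1 and 8.84 CPM, which differ among themselves by more than the groups do, against 12, 8.86 and 7.40. Zfp697 had the highest, 1.40 (SE 0.58, adjusted p = 0.20), from 0.42, 0.30 and 1.37 CPM in controls and 1.38, 2.47 and 1.93 in shElp3 cells.

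The groups did not overlap in RNA for 25 members that were higher in shElp3 cells (10.2%, against 10.2% of all genes) and 17 that were lower (6.91%, against 9.56%). In footprints they did not overlap for 47 that were higher (19.1%, against 15.4%) and 23 that were lower (9.35%, against 15.3%). Where the fold change was taken within a letter, the members' median in RNA was 0.22 for A, -0.06 for B and 0.01 for C, and in footprints 0.24, 0.09 and 0.04. All genes had medians of -0.01 to 0.02 in each of these 6 comparisons. The upward shift of the Zfp genes was thus widest within letter A in both fractions, where 162 members in RNA and 163 in footprints lay above 0. In B and C the counts above 0 were 109 and 130 in RNA and 135 and 131 in footprints.

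Translation efficiency (TE), the footprints relative to RNA, was tested over the 12 libraries as an interaction between fraction and shRNA. No member was called by edgeR, and neither was any of the 11238 genes tested (0%). With an unadjusted p under 0.05, edgeR counted 5 members (2.03%, against 0.552% of all genes), DESeq2 6 (0.721% of all genes) and limma voom with quality weights 17 (6.91%, against 4.60%), and none of them passed after adjustment in any of these tools or with the letter or the culture as a block. The members' median TE change was 0.02 on the log2 scale and that of all genes -0.03. The median SE of a member's TE change was 0.42, and 215 members (87.4%, against 91.5% of all) lay within 0.5 of 0.

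The 5 members of that count were Zfp575, Zfp37, Zfp113, Zfp101 and Zfp787, of which Zfp787 was named after its values were seen. Zfp575 (chromosome 7, 24583838 to 24587840) had a TE change of 1.56 (SE 0.40, edgeR adjusted p = 1.00). Its RNA was 91.0, 98.0 and 107 CPM in controls and 39.4, 74.3 and 56.8 in shElp3 cells, with no overlap, at -0.84 (SE 0.19, adjusted p = 0.011) with the letter block. Its footprints were 4.76, 6.06 and 7.93 CPM against 7.66, 13.9 and 11.6, which overlapped, at 0.81 (SE 0.29, adjusted p = 0.151). Zfp575 overlaps Ethe1, a mitochondrial sulfur dioxygenase gene, and whether its counts include reads of Ethe1 was not tested. Zfp37 had a TE change of 1.18 (SE 0.33), Zfp101 one of 0.99 (SE 0.45), Zfp113 one of 0.62 (SE 0.26) and Zfp787 one of -1.77 (SE 0.76), each with an adjusted p of 1.00.

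Members with known roles at RNA or ribosomes were followed as a list of 8, of which 7 are members (Zfp36, which destabilises AU-rich mRNAs, is just below the minimum). In this list Zfp326 fell, in footprints (all genes lower 3.06% by edgeR) and with the letter block in RNA (all genes lower 6.75%). The other 6 were not called by edgeR or DESeq2 with all 6 libraries or by edgeR with the block in RNA. DESeq2 called 5.31% of all genes in RNA and 11.5% in footprints. In edgeR 1 of the 7 had an unadjusted p under 0.05 in each fraction (all genes 12.4% and 23.1%). Zfp598, the ubiquitin ligase that senses collided ribosomes, held 28, 66.2 and 76.0 CPM in control RNA and 36.3, 73.4 and 60.2 in shElp3 RNA. Its footprints were 31.4, 23.6 and 28.3 CPM against 29.5, 26.8 and 26.9. The groups overlapped in both fractions, and the footprint log2 fold change was -0.001 (SE 0.16, edgeR adjusted p = 0.996).

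The ribosome assembly factors Zfp622, which acts late on the large subunit, and Zfp593, which accompanies its precursor out of the nucleus, had footprint log2 fold changes of 0.08 (SE 0.14) and -0.07 (SE 0.28). Zfp622 footprints were 68.9, 57.9 and 59.9 CPM in controls and 70.0, 64.2 and 63.4 in shElp3 cells, which overlapped. The RNA-binding Zfp106 is the member with the highest mean RNA count (3828). It held 188, 401 and 418 CPM in control RNA and 195, 419 and 376 in shElp3 RNA, so its letter A was less than B and C in both groups and its footprint log2 fold change was 0.04 (SE 0.13). Zfp638, which affects splicing, and Zfp346, which binds double-stranded RNA, had RNA log2 fold changes of -0.24 and -0.13 and footprint values of 0.04 and -0.35.

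Of 17 Zfp genes known from transcription, chromatin or mitosis, 16 are members. None was called in RNA or footprints with all 6 libraries by edgeR or DESeq2. In edgeR 0 and 4 had an unadjusted p under 0.05 (all genes 12.4% and 23.1%). With the letter block in RNA 1 of the 16, Zfp143, fell (all genes lower 6.75%). The median log2 fold change of the 16 was -0.16 in RNA and -0.21 in footprints, where 4 of 16 lay above 0. Letters B and C alone called 19.4% of all genes in RNA and 21.7% in footprints. With letters B and C alone, Zfp207 (BuGZ, a spindle and Bub3-binding protein) was lower in RNA (-0.60, edgeR adjusted p = 0.031) and footprints (-0.58, 0.036), Zfp335, a regulator of neural progenitors, in footprints (-0.65, 0.040), and Zfp423, a partner of EBF and SMAD factors, was higher in RNA (0.87, 0.022). Zfp207 footprints were 77.3, 119 and 84.9 CPM in controls and 63.6, 61.6 and 75.2 in shElp3 cells, without overlap. Zfp335 footprints were 22.5, 14.5 and 13 CPM against 10.9, 9.48 and 8.05, also without overlap, at -0.81 (SE 0.26, adjusted p = 0.113) with all 6. The groups of Zfp148, Zfp609 and Zfp703 overlapped in both fractions.

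KRAB zinc finger genes with known targets numbered 6, and 5 are members. None was called with all 6 libraries of a fraction, by edgeR or DESeq2, or with the letter block. In edgeR 0 in RNA and 1 in footprints had an unadjusted p under 0.05 (all genes 12.4% and 23.1%). Zfp809, which silences murine leukemia proviruses, held 25.5, 20.3 and 19.9 CPM in control RNA and 24.7, 32.4 and 31.5 in shElp3 RNA. It was higher with letters B and C alone (0.67, edgeR adjusted p = 0.0099) and overlapped with letter A included (0.43, SE 0.23, adjusted p = 0.533). Zfp445, which keeps imprints with Zfp57, had control footprints of 72.8, 73.6 and 78.9 CPM and shElp3 footprints of 90.2, 90.3 and 102, without overlap, at 0.33 (SE 0.13, adjusted p = 0.175). Zfp57 held 3.64, 5.17 and 4.37 CPM in control footprints and 4.39, 3.50 and 3.22 in shElp3 ones, which overlapped. Zfp568, a repressor of a placental Igf2 transcript, had log2 fold changes of -0.08 in RNA and -0.04 in footprints.

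The partners through which KRAB proteins silence (TRIM28, SETDB1, HP1, HUSH and NuRD subunits and DNA methylation enzymes) made up a list of 26, all tested. In RNA 0 were called by edgeR (all genes 1.14%), with 5 at an unadjusted p under 0.05 (all genes 12.4%), and DESeq2 called 3, all lower (all genes lower 3.43%). With the letter block 4 were lower in RNA (all genes lower 6.75%). In footprints edgeR called 3, all lower (all genes lower 3.06%), and DESeq2 5, all lower (all genes lower 6.88%): Uhrf1, Dnmt1, Trim28, Hdac2 and the HP1 gene Cbx5. Their median log2 fold changes were -0.30 in RNA and -0.19 in footprints. Uhrf1, which guides maintenance DNA methylation, had a footprint level of 193 ± 108 CPM in controls and 40.0 ± 11.2 in shElp3 cells (SD, n = 3), and fell by 2.27 on the log2 scale (SE 0.47, adjusted p = 0.040 by edgeR). Hdac2, a histone deacetylase of NuRD, fell by 0.64 on the log2 scale (SE 0.14, adjusted p = 0.042), and Trim28 by 0.76 (SE 0.17, adjusted p = 0.049), from 239 ± 49.5 to 141 ± 5.73 CPM.

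In RNA with the letter block, Uhrf1 (-2.04), Dnmt1 (-1.32), the maintenance DNA methyltransferase, Cbx3 (-0.84), an HP1 protein, and Hdac2 (-0.82) were called, and Trim28 (-0.55, edgeR adjusted p = 0.069) was not. Setdb1 had values of 0.01 in RNA and -0.08 in footprints. The footprint calls of Uhrf1, Hdac2 and Trim28 were kept without shControl A and ended without any other single library, at adjusted p of 0.10 to 0.22. Those other fits called at most 0.512% of all genes. The call of Trim28 also ended with library totals (adjusted p = 0.077), a count minimum of 50 (0.053) and the letter block (0.053), and that of Hdac2 with library totals (0.068) and the block (0.054).

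Around Zfp598, 16 genes that sense or clear stalled ribosomes were tested. Among them Abce1, which splits ribosomes for recycling, was lower in footprints, at 227 ± 13.2 against 156 ± 3.45 CPM (SD, n = 3). Its log2 fold change was -0.54 (SE 0.12, adjusted p = 0.042 by edgeR), and edgeR called none of the other 15 (all genes 4.83%). In edgeR 5 of the 16 had an unadjusted p under 0.05 in footprints, against 23.1% of all genes. DESeq2 called 3 of the 16 in footprints (all genes 11.5%): Abce1 lower, and higher Ascc2 (0.69, adjusted p = 0.0044), of the complex that takes collided ribosomes apart, and Edf1 (0.64, 0.025), which binds collided ribosomes. Leaving out any footprint library but shControl A ended the edgeR call of Abce1 in footprints, at adjusted p of 0.10 to 0.20. Such fits called at most 0.512% of all genes. In RNA Abce1 was called with the letter block (-0.65, edgeR adjusted p = 0.036) and with letters B and C alone (-0.50, 0.035). It was not called without a block (-0.73, 0.54). This value was -0.24 (0.65) without shControl A, a fit that keeps shElp3 A without a control of its letter. Of 15 genes of AU-rich and CCCH-linked mRNA decay, partners of Zfp36, 0 were called by edgeR in either fraction or with the block. In RNA 0 and in footprints 3 had an unadjusted p under 0.05 (all genes 12.4% and 23.1%). DESeq2 called 1 in footprints, the deadenylase Cnot6l (all genes 11.5%). The medians were -0.42 in RNA and -0.21 in footprints.

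Footprints relative to RNA were low for Zfp genes in control cells. This ratio, log2 of footprint CPM plus 0.5 over RNA CPM plus 0.5, is a description, since RNA counts chose the members. Its median over members was -0.54 (-0.65 in control A, -0.56 in B and -0.58 in C), with quartiles of -1.06 and -0.23. All 11238 genes tested had a median of -0.14, and the 10448 of them with the same RNA minimum -0.15. Of the members 195 (79.3%) lay below the median of all genes and 35 above 0. Other C2H2 series gave -0.78 (33 Zbtb genes), -0.77 (15 Zscan and Zkscan genes) and -0.68 (15 Klf and Sp genes), and the silencing partners 0.16. Libraries differed for the smaller groups: in controls A to C the median was -0.31, -1.02 and -0.98 for the Zbtb genes and -0.60, -0.86 and -0.57 for Klf and Sp, so that in A the Zbtb median, and in A and C that of Klf and Sp, lay above the Zfp one. Footprints come from coding sequence and RNA reads from whole transcripts, and the share of untranslated sequence in these genes was not tested.

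**Figure D4:**
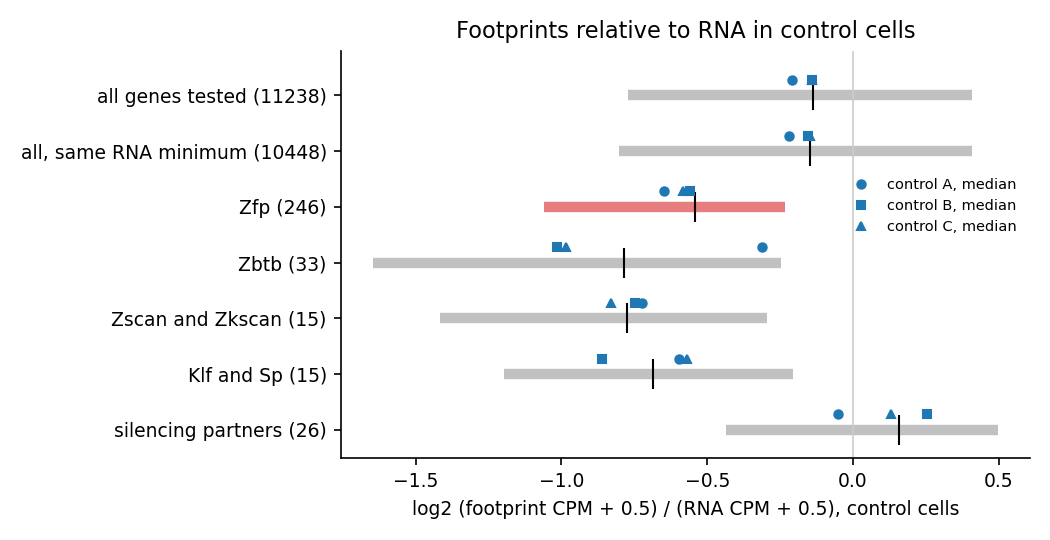
Log2 ratio of footprint to RNA CPM in control cells (horizontal axis, with 0.5 added to each value) for gene groups with the number of genes in brackets. Bars span the quartiles over genes, the black tick is the median over genes of the 3-library mean, and points are the medians in each control library. The Zfp median of -0.54 lies left of -0.14 for all genes tested, as do the Zbtb, Zscan and Klf groups. For Zbtb and for Klf and Sp the order relative to the Zfp genes differs between control libraries (Zbtb at -0.31 and Zfp at -0.65 in A). The Zscan and Zkscan median is below the Zfp one in each control library.

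The lowest ratios were those of Zfp91, a ubiquitin ligase (-3.99, -4.58 and -4.28 in controls A to C), and Zfp575 (-4.12, -3.91 and -3.68). Zfp91 held 52.0, 63.6 and 53.3 CPM in control RNA and 2.80, 2.19 and 2.28 in control footprints. It overlaps the paxillin family gene Lpxn, and as for Zfp575 and Ethe1 the part of the neighbour's reads was not tested. The highest were those of Zfp442 (1.66, 1.81 and 2.50), Zfp326 (1.49, 0.97 and 1.04) and Zfp706 (1.05, 1.08 and 0.94). Zfp706 encodes a very small zinc finger protein. Its control footprints were 310, 340 and 262 CPM and its shElp3 footprints 146, 214 and 215, without overlap, at a log2 fold change of -0.67 (SE 0.19, adjusted p = 0.086 by edgeR and 0.025 by DESeq2), and letters B and C alone gave -0.49 (0.026). In shElp3 cells the median ratio of the members was -0.53, -0.51 and -0.62 for letters A to C.

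On the genome the members lie on 20 chromosomes, 61 of them (24.8%) on chromosome 7 and 31 on chromosome 17. RefSeq lists 367 genes with a symbol of Zfp and a number, and 88 members fall in 19 runs of at least 4 such genes with gaps of at most 100 kb. Zfp607, which RefSeq names Zfp607a, lies within a run on chromosome 7 (27731409 to 28014210). Its RefSeq symbol did not match, and it is counted outside runs. Members in runs had a median log2 fold change of 0.12 in RNA and 0.25 in footprints, and the 158 outside runs -0.002 and 0.09. Above 0 in footprints were 60 of the 88 (68.2%) and 90 of the 158 (57.0%). None of the 88 was called by edgeR in RNA or footprints with 6 libraries (all genes 1.14% and 4.83%), and the 5 members so called were among the 158. Of the 88, 8 and 14 had an unadjusted edgeR p under 0.05 (all genes 12.4% and 23.1%). DESeq2 called 2 and 4 of them (all genes 5.31% and 11.5%). With the letter block in RNA, 5 of the 88 and 9 of the 158 were called (all genes 12.2%). The difference between the classes was not tested, since neighbours of a run are near copies of each other and reads that fit several of them may be counted for none or for another.

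The run with the most Zfp genes, on chromosome 7 from 29768552 to 30169775, holds 15 Zfp genes of which 14 are members, among them Zfp14 and Zfp568. Its RNA log2 fold changes ran from -0.56 to 1.25 with a median of -0.02, and its footprint values from -0.29 to 0.76 with a median of 0.25. A run of 10 members on chromosome 17 (21383707 to 21994366), with Zfp948 and Zfp760, spread from -0.83 to 0.79 in RNA. Neighbours thus differed in direction: Zfp948 fell and Zfp760 rose with the letter block. In the run of 7 members on chromosome 7 from 24081877 to 24316698, which holds Zfp94, 6 were above 0 in RNA, with a median of 0.46.

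**Figure D5:**
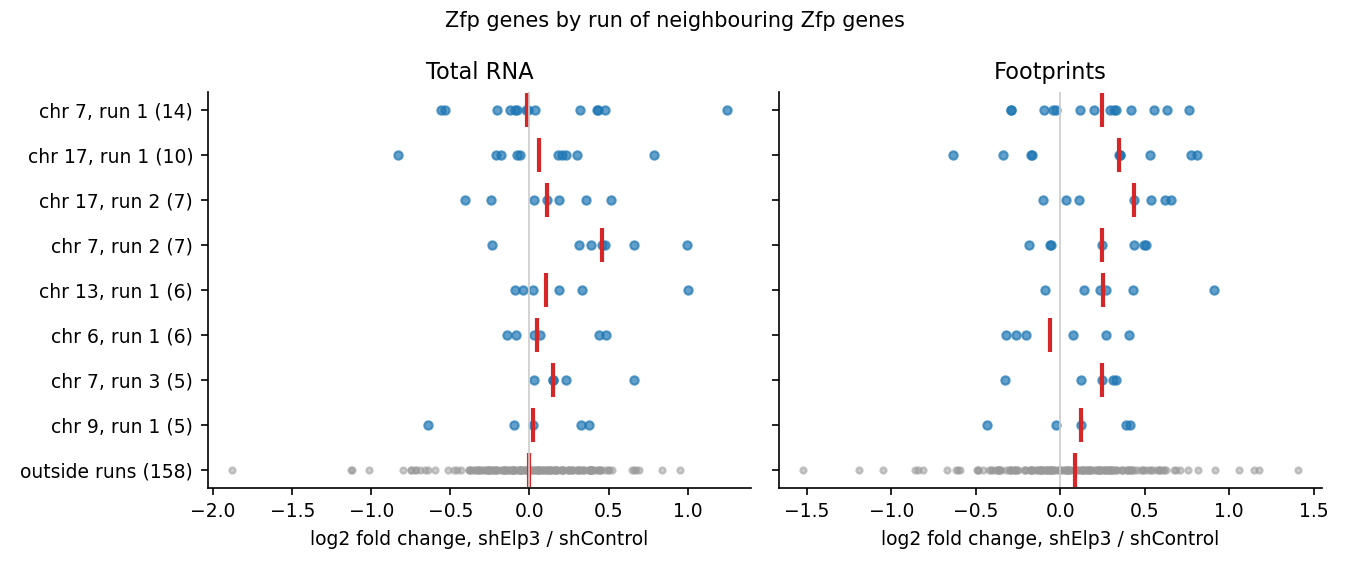
Log2 fold change shElp3 over shControl (horizontal axes) in RNA and footprints for members in each run of neighbouring Zfp genes with 5 or more members, and for the 158 members counted outside runs. Each point is a gene and each red tick a median, with the number of members in brackets. The members of a run lie on both sides of 0 in most runs, and the one with the most members spans -0.56 to 1.25 in RNA.

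In all, 30 members overlap another protein-coding gene. Their medians were 0.11 in RNA and 0.20 in footprints, and those of the 216 that do not overlap were 0.03 and 0.12. The 5 members that edgeR called without a block over 6 libraries are all among the 216, which are most of the members. Of all genes 1.14% were so called in RNA and 4.83% in footprints. With the letter block in RNA, 2 of the 30 and 12 of the 216 were called (all genes 12.2%). Of the members called otherwise, Zfp706 (DESeq2 in footprints), Zfp575 and Zfp94 (letter block in RNA) and, with letters B and C, Zfp575, Zfp809 and Zfp672 in RNA and Zfp706, Zfp575 and Zfp867 in footprints overlap a neighbour.

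Other C2H2 series were counted in the same fits, where edgeR called 1.14% of all genes in RNA and 4.83% in footprints. An unadjusted edgeR p under 0.05 was held by 12.4% and 23.1% of all genes, and DESeq2 called 5.31% and 11.5%. Of 33 Zbtb genes 0 were called by edgeR in RNA (2 had an unadjusted p under 0.05, and DESeq2 called 1) and 1 was higher in footprints, with medians of 0.01 and 0.10. The 15 Zscan and Zkscan genes had 0 calls by edgeR or DESeq2 in either fraction (0 and 6 with an unadjusted p under 0.05) and medians of 0.26 and 0.33. The 15 Klf and Sp genes had 0 calls by edgeR (3 and 4 with an unadjusted p under 0.05), 1 by DESeq2 in footprints, and medians of -0.31 and -0.15. With the letter block in RNA, 2 Zbtb genes were higher and 1 lower, 0 Zscan and Zkscan genes were called, and 3 of 15 Klf and Sp genes were lower, against 5.46% higher and 6.75% lower of all genes. Whether these series differ from the Zfp genes was not tested.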

How the data were processed

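The deposited table holds raw counts of reads per gene symbol, made by the authors for 12 libraries from a TruSeq Ribo Profile kit. The submitters' processing notes name mm10 and the tools HTSeq, TopHat2 2.1.1, Bowtie and bcl2fastq. Not given in the sources used here are the annotation, the strand setting and the region of footprint counting, so reads of overlapping, antisense or near-identical genes may be mixed. Genes were kept with filterByExpr (minimum count 10), scaled by TMM and tested in R 4.3.3 by glmQLFTest of edgeR 4.0.16. P-values were adjusted by Benjamini-Hochberg over every gene of the fit, and calls use 0.05. All 246 members passed the filters of RNA, footprints and both. TE was the interaction of fraction and shRNA. CPM are TMM-scaled. Alternatives used DESeq2 1.42.0 and limma 3.58.1.

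Letters were checked for pairing by the correlation across genes of deviations from group means. Same-letter libraries had r of 0.819 (A), 0.451 (B) and 0.603 (C) in RNA and 0.341, -0.109 and 0.221 in RPF, so the block stands beside RNA results only. In RNA control B correlated more with shElp3 C (0.709) than with shElp3 B (0.451). Control C correlated about equally with shElp3 B (0.599) and C (0.603). The RNA letters thus set A apart and did not show that B and C pair. Libraries of a group differed by a chi-square per degree of freedom of 8.25 or more, beyond sampling noise. Genes were named by a rule: 8 largest called changes per direction and comparison, the members of 3 role lists, the 5 highest RNA counts, the edges of the count minimum and up to 3 called genes of each partner list. Genes given only for a DESeq2 call or an overlap (Zfp668, Zfp672, Zfp867, Zfp933, Ascc2, Edf1, Cbx5 and Cnot6l) were named after their values were seen. The members, the lists and the rule were chosen with earlier results of these data known, so list counts are descriptions. RefSeq (GRCm38.p6) gave positions for 246 members, 2 by an older symbol. Protein sequences were not used here, and KRAB domains and fingers were not counted. The fits were tested on simulated data. No p-value of the authors was used.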

Additional observations from a re-analysis of the deposited data

How the results depend on the processing

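The count of members called in RNA (1) was 0 with library totals, 4 with DESeq2, 14 with the letter as a replicate block and 24 with letters B and C only, and ran from 0 to 1 when a library was left out. Only leaving out shControl A kept a call, and without any other RNA library 0% of all genes were called. The count in footprints (4) was 12 with DESeq2 and 22 from letters B and C, and ran from 0 to 27 when a library was left out: 27 without shControl A (11.0%, against 24.8% of all genes) and 0 without any other. The same 4 members were called under every other scaling, filter and tool of the footprint fit, with the letter block and from letters B and C. The letter block changed the footprint count to 6 (2.44%, against 5.87% of all genes) and left TE at 0. The members' median TE change ran from -0.017 (without RNA shControl B) to 0.128 (without RNA shElp3 A), and 0 members were called under any TE setting. The median footprint to RNA ratio in controls ran from -0.601 (without A) to -0.548 (without B). No value of a named gene that was called turned its direction. Library totals moved the RNA median of all genes from -0.02 to 0.10 and that of the members to 0.15. A count minimum of 100 for membership gave 192 members (0 called in RNA, 3 in footprints), and a minimum of 50 on scaled counts 248 (1 and 4). A planned count of KRAB domains and fingers was not run. With 3 libraries a group and letter A apart in RNA and in control footprints, small changes of single Zfp genes were not detectable. Genes of low count, Zfp101 among them, rest on few reads.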
